A study of Mus musculus with 8 samples.

Results

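The 9 genes described here mark microglia or encode C1q, the first component of complement: P2ry12, Tmem119, Cx3cr1, Csf1r, Trem2, Aif1, C1qa, C1qb and C1qc. They were chosen by symbol for their known roles, with earlier results of these data known, and all 9 were found among the 55032 genes counted by RNAseq. The libraries came from the striatum of 4 WT (wild type) mice and 4 16p11.2+/- mice, female C57BL/6 animals at postnatal day 60 that received no treatment. The 16p11.2+/- line carries a heterozygous deletion of the mouse segment that corresponds to human 16p11.2, present in every cell of the animal and not restricted to microglia. Mice are called here by the identifiers of the libraries, WT-1015, WT-1041, WT-1061 and WT-1063, and DF-1018, DF-1037, DF-1059 and DF-1062 for 16p11.2+/-. The question was whether microglial and C1q transcripts differed between the genotypes.

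Microglia are the resident macrophages of the brain. They survey the tissue with motile processes, depend on signalling through the receptor CSF1R for survival, and are the main source of C1q in the brain. C1q starts the classical complement pathway, in which C4 and C3 are cleaved and deposited on targets that phagocytes then engulf through complement receptors, a route known to contribute to the removal of synapses during development.

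The libraries held between 15125051 and 16523429 counted reads. Of the genes in the table, 18294 passed the filter on low counts, and all 9 microglial and C1q genes were among them. The dissections differed in content between mice. The summed FPKM (fragment counts scaled to gene length and library depth) of 10 medium spiny neuron markers, which define the striatum, ran from 935 to 1568 in WT and from 288 to 1468 in 16p11.2+/-, and that of 7 thalamus markers from 15.2 to 183 and from 21.02 to 188. DF-1062 had the lowest medium spiny neuron score of the 8 mice, 5.96 as a mean log2 CPM (counts scaled to the library total), followed by DF-1037 at 6.39, with 7.74 to 8.48 in the other mice. The thalamus score lay between 5.96 and 6.89 in WT-1063, DF-1018, DF-1037 and DF-1062 and between 3.43 and 3.87 in the remaining 4 mice. The summed FPKM of 6 choroid plexus markers ran from 7.64 to 4431 in WT and from 11.8 to 126 in 16p11.2+/-. The choroid plexus score, from the 4 of them that passed the filter, was 8.51 in WT-1063, 5.73 in WT-1015 and 1.68 to 4.03 in the other mice. In bulk tissue, fewer microglia and less RNA per microglial cell cannot be told apart.

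The 3 C1q genes lie side by side on the reverse strand of chromosome 4 (GRCm38, GENCODE M21): C1qb at chr4:136880129-136886187, C1qc at chr4:136889804-136893065 and C1qa at chr4:136895917-136898803. Together they span 18675 bases, with 3616 bases between C1qb and C1qc and 2851 between C1qc and C1qa. P2ry12 lies at chr3:59216272-59262871, Tmem119 at chr5:113793729-113800516, Cx3cr1 at chr9:119901616-120069879, Trem2 at chr17:48346401-48354147 and Aif1 at chr17:35170991-35176068, and none of the 9 genes is in the deleted segment of chromosome 7.

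The stretches before 4 of these genes are shown because a transcription factor of myeloid cells, PU.1, binds purine-rich sites with the core GGAA. The sequences are from RefSeq (GRCm38.p6), read 5′ to 3′ in the direction of the gene, from the 250 bases before the RefSeq start. RefSeq entries were matched for 6 of the 9 genes. Capitals mark GAGGAA or GGAAGT on either strand, and where both overlap, as in C1qc, the capitals run through both. Each stretch shown holds a match. Cx3cr1, whose window held neither motif, and Aif1 were also matched but are not shown. The stretches are chr4:136886201-136886450 for C1qb, chr3:59262986-59263235 for P2ry12 and chr17:48346151-48346400 for Trem2. For C1qc the stretch is chr4:136893066-136893164, the first 99 bases of that window, since the rest lies inside the gene as GENCODE places its start.
C1qb: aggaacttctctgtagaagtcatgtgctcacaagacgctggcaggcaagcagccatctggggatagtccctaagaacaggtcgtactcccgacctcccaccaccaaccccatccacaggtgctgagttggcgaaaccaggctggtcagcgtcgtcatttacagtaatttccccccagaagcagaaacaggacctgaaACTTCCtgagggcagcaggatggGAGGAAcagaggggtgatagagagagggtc
C1qc: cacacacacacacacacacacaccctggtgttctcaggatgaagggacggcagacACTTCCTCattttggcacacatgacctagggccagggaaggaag
P2ry12: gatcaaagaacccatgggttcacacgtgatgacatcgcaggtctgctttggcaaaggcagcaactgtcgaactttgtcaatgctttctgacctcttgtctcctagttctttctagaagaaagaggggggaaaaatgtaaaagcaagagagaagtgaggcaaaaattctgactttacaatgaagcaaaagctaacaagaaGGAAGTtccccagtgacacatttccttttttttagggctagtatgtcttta
Trem2: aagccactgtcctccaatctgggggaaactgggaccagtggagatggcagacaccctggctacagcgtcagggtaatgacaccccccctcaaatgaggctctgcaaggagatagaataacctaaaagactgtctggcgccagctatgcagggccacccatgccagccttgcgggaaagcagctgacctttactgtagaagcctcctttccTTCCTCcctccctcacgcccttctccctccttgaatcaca

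GAGGAA, searched on both strands in the 250 bases before the start, was found in 4 of the 6 genes (C1qb, C1qc, Trem2 and Aif1) and in 23.3% of 32851 RefSeq promoters. The Aif1 copy, 7 bases before the RefSeq start, lies inside the gene as GENCODE places it, and so does the whole window of Cx3cr1. GGAAGT was found in 3 of the 6 (P2ry12, C1qb and C1qc) and in 19.7% of all promoters. The ETS-IRF composite element, bound by PU.1 together with IRF8, was found in 0 of the 6 and in 2.3% of all promoters. In C1qb the GAGGAA copy began 30 bases before the start, and in P2ry12 the GGAAGT copy began 51 bases before it. These matches describe the letters of the windows and are not evidence of binding. A link between them and the shared variation of the genes between mice was not tested.

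None of the 9 genes passed the test for a difference between genotypes. By edgeR's quasi-likelihood test with Benjamini-Hochberg adjustment, 0 of 9 had an adjusted p under 0.05, where 0.109% of all genes tested did, and 0 of 9 had an unadjusted p under 0.05, where 4.32% of all genes did. DESeq2 gave 0 of 9 at both thresholds, where 0.116% and 2.92% of its genes passed, and limma-voom 0 of 9, where 0.109% and 4.27% passed. The log2 fold change (16p11.2+/- against WT) was negative for 6 genes and positive for 3, with a median of -0.08 beside -0.01 over all genes tested. FPKM of the 2 genotypes overlapped for all 9, where 2.83% of all genes tested had no overlap. The lowest value of all 8 mice was that of DF-1062 for 9 of 9 genes. Without DF-1062 the log2 fold change was negative for 3 genes and positive for 6, with a median of 0.07, and 0 of 9 passed the adjusted edgeR p. Leaving out the lowest mouse was bound to raise these estimates. WT-1063 was the lowest WT mouse for 9 of 9 genes, and without it each log2 fold change was lower than with 8 mice. It was then -0.41 for P2ry12, 0.06 for C1qa and -0.03 for C1qb.

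P2ry12 encodes the ADP receptor that guides microglial processes towards injured or active cells. Its FPKM was 16.7, 12.9, 17.9 and 11.7 in WT-1015, WT-1041, WT-1061 and WT-1063, and 12.1, 15, 13.3 and 8.01 in DF-1018, DF-1037, DF-1059 and DF-1062. Only DF-1062 lay below all WT mice, and the other 16p11.2+/- mice lay within the WT range. The means were 14.8 ± 2.96 in WT and 12.1 ± 2.97 in 16p11.2+/- (SD, n = 4 each), a log2 fold change of -0.31 (SE 0.22, 95% interval -0.81 to 0.20) with an edgeR adjusted p of 0.859. This was the most negative difference among the 9 genes. It was -0.13 without DF-1062 and -0.41 without WT-1063.

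Tmem119 encodes a membrane protein that separates microglia from other macrophages of the brain. Its FPKM was 7.20, 7.67, 7.56 and 5.66 in the WT mice, in the order given above, and 7.85, 7.46, 7.25 and 5.07 in the 16p11.2+/- mice. The groups overlapped, with 1 low mouse in each, WT-1063 and DF-1062. The log2 fold change was -0.04 (SE 0.18, 95% interval -0.44 to 0.36, edgeR adjusted p = 0.964).

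Cx3cr1 encodes the receptor for fractalkine, the ligand that neurons present to microglia. Its FPKM was 9.94, 8.75, 11.23 and 7.91 in WT, and 9.48, 12.3, 7.90 and 6.60 in 16p11.2+/-. The highest and the lowest of the 8 values were both in 16p11.2+/- mice, DF-1037 and DF-1062. For Cx3cr1 the log2 fold change was -0.08 (SE 0.21, 95% interval -0.54 to 0.39, edgeR adjusted p = 0.938).

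Csf1r, at chr18:61100598-61132149, encodes the receptor for CSF1 and IL-34 on which microglia depend. It shares 15.1% of its exonic bases with Hmgxb3 on the opposite strand, so that reads there could belong to either gene unless strand was used in the counting. Its FPKM was 16.5, 17.7, 21.7 and 14.5 in WT, and 18.1, 17.6, 16.2 and 12.3 in 16p11.2+/-. WT-1061 was the highest and DF-1062 the lowest, and the others were intermingled. Csf1r had a log2 fold change of -0.15 (SE 0.17, 95% interval -0.54 to 0.24, edgeR adjusted p = 0.874).

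Trem2 encodes a lipid-sensing receptor that signals through TYROBP, and Aif1 encodes the calcium-binding protein IBA1, widely used to stain microglia. Trem2 FPKM was 1.70, 1.36, 1.55 and 1.33 in WT, and 1.83, 1.79, 1.96 and 0.979 in 16p11.2+/-. For Trem2, 3 16p11.2+/- mice lay above all WT mice and DF-1062 below all of them. The log2 fold change of Trem2 was 0.13 (SE 0.24, 95% interval -0.41 to 0.67, edgeR adjusted p = 0.916), 0.34 without DF-1062 and 0.08 without WT-1063.

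Aif1 FPKM was 2.07, 2.26, 2.39 and 1.94 in WT, and 2.06, 2.55, 1.73 and 1.19 in 16p11.2+/-. The WT values were close together, and the 16p11.2+/- mice held the highest value and the lowest. Its log2 fold change was -0.22 (SE 0.25, 95% interval -0.79 to 0.36, edgeR adjusted p = 0.876). Aif1 had the fewest reads of the 9, between 30 and 60 per mouse, beside 991 to 1736 for Csf1r.

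C1qa, C1qb and C1qc encode the A, B and C chains of C1q, which assemble in equal numbers. C1qa FPKM was 20.7, 22.3, 24.0 and 18.0 in WT, and 23.9, 26.3, 26.4 and 17.5 in 16p11.2+/-. C1qb FPKM was 22.6, 23.2, 24.7 and 19.3 in WT, and 25.7, 25.0, 25.9 and 16.97 in 16p11.2+/-. For C1qb, 3 16p11.2+/- mice lay just above all WT mice, and DF-1062 lay below all of them.

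C1qc FPKM was 10.6, 11.9, 10.4 and 8.65 in WT, and 9.58, 11.24, 10.5 and 8.12 in 16p11.2+/-, with full overlap apart from DF-1062. The log2 fold change was 0.13 for C1qa (SE 0.16, 95% interval -0.24 to 0.50, edgeR adjusted p = 0.882), 0.04 for C1qb (SE 0.16, 95% interval -0.33 to 0.42, edgeR adjusted p = 0.959) and -0.10 for C1qc (SE 0.14, 95% interval -0.42 to 0.23, edgeR adjusted p = 0.897). For none of the 3 chains was the difference larger than the spread of the mice. Without DF-1062, C1qa was 0.28 higher in 16p11.2+/- on the log2 scale, with an unadjusted edgeR p of 0.042 and an adjusted p of 0.999. Without WT-1063, C1qa was 0.06 higher, with an unadjusted edgeR p of 0.746.

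**Figure D1:**
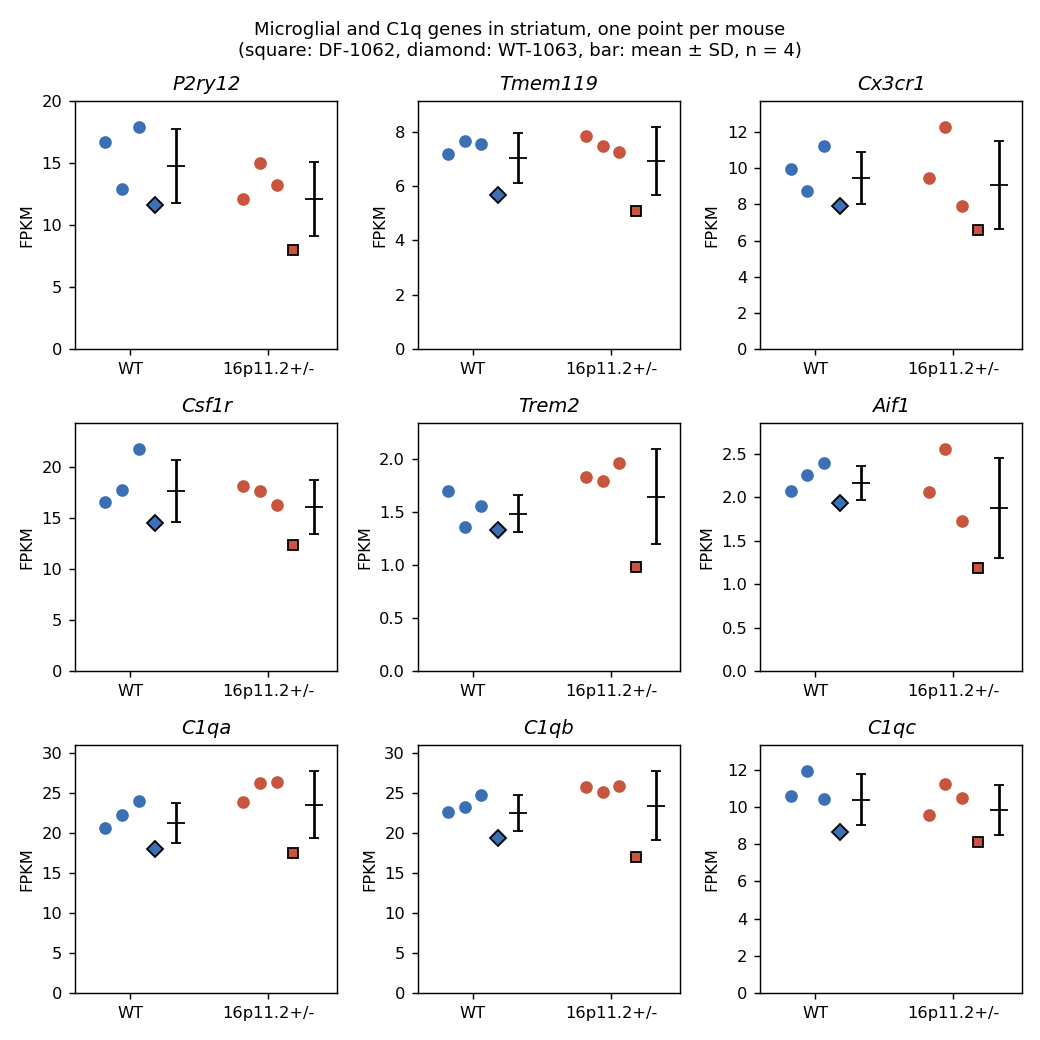
FPKM (y axis, linear from 0) of the 9 microglial and C1q genes in WT and 16p11.2+/- striatum, 1 point per mouse, with the mean ± SD (n = 4) beside each group, a square for DF-1062 and a diamond for WT-1063. DF-1062 is the lowest of the 8 mice and WT-1063 the lowest of the WT mice for 9 of 9 genes.

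Taking the 9 genes by their unadjusted results, the smallest edgeR p was 0.202, for P2ry12, and the smallest two-sided exact permutation p on FPKM was 0.257, where 4 mice against 4 allow 0.0286. The 95% intervals reached at most down to -0.81 (P2ry12) and up to 0.67 (Trem2). Each therefore stayed above the log2 fold change of -1.003 measured for Sez6l2, a gene of the deleted segment.

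**Figure D2:**
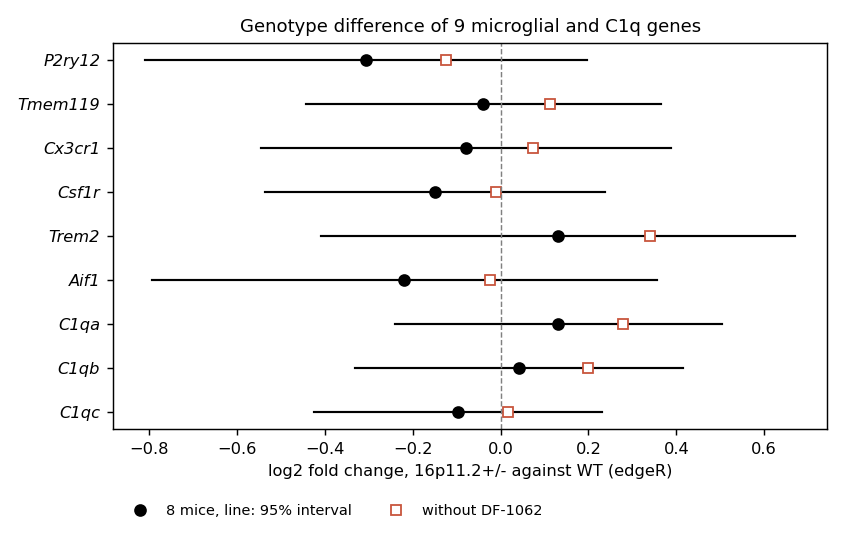
Log2 fold change of each of the 9 genes, 16p11.2+/- against WT, with its 95% interval from edgeR (x axis), with all 8 mice and without DF-1062. All 9 intervals of the fit with 8 mice include 0, and without DF-1062 the estimate of every gene is higher, from -0.13 for P2ry12 to 0.34 for Trem2. DF-1062 is the lowest mouse for each gene, so this direction was set beforehand.

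The spread between mice was shared by the genes. DF-1062 reached between 54.2% (P2ry12) and 82.2% (C1qa) of the WT mean, and Aif1 was at 54.8% there. Among the WT mice, WT-1063 was the lowest for 9 of 9 genes. Of 26 other microglia genes, 19 (73.1%) had their lowest FPKM in DF-1062, where 15.7% of all genes tested did, and 21 (80.8%) their lowest log2 CPM with TMM scaling, where 21.9% did. In the same mouse 8 of 10 medium spiny neuron markers were lowest in FPKM and 9 of 10 in log2 CPM, and 6 of 6 oligodendrocyte markers were lowest on both scales. For other cells, the lowest FPKM was in DF-1062 for 0 of 6 astrocyte, 0 of 7 thalamus, 1 of 7 cortical glutamatergic neuron and 2 of 6 endothelial and mural markers. DF-1037, with the next lowest medium spiny neuron score and the highest thalamus score (6.89), held the highest value of Cx3cr1 and Aif1. Among the 4 mice with a higher thalamus score (1 WT, WT-1063, and 3 16p11.2+/-), the log2 difference between genotypes was negative for 2 of 9 genes (-0.08 to 0.29, median 0.14). Among the other 4 (3 WT and 1 16p11.2+/-, DF-1059) it was negative for 6 of 9 (-0.37 to 0.34, median -0.08). Each comparison rests on 1 mouse of a genotype, so the signs of the 9 genes are not separate observations. WT-1063 was also the lowest WT mouse for every gene, and it had the highest choroid plexus score. There were too few mice for a test. Over the 8 mice, the correlations of the 9 genes with the thalamus score were all negative (r = -0.532 to -0.087). Those with the medium spiny neuron score were all positive (0.310 to 0.657). Of these 18 correlations, 0 passed a Benjamini-Hochberg adjusted exact permutation p of 0.05, and 8 mice give little power. Without DF-1062 both scores gave correlations of both signs (-0.548 to 0.116 for thalamus, -0.461 to 0.238 for medium spiny neurons).

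**Figure D3:**
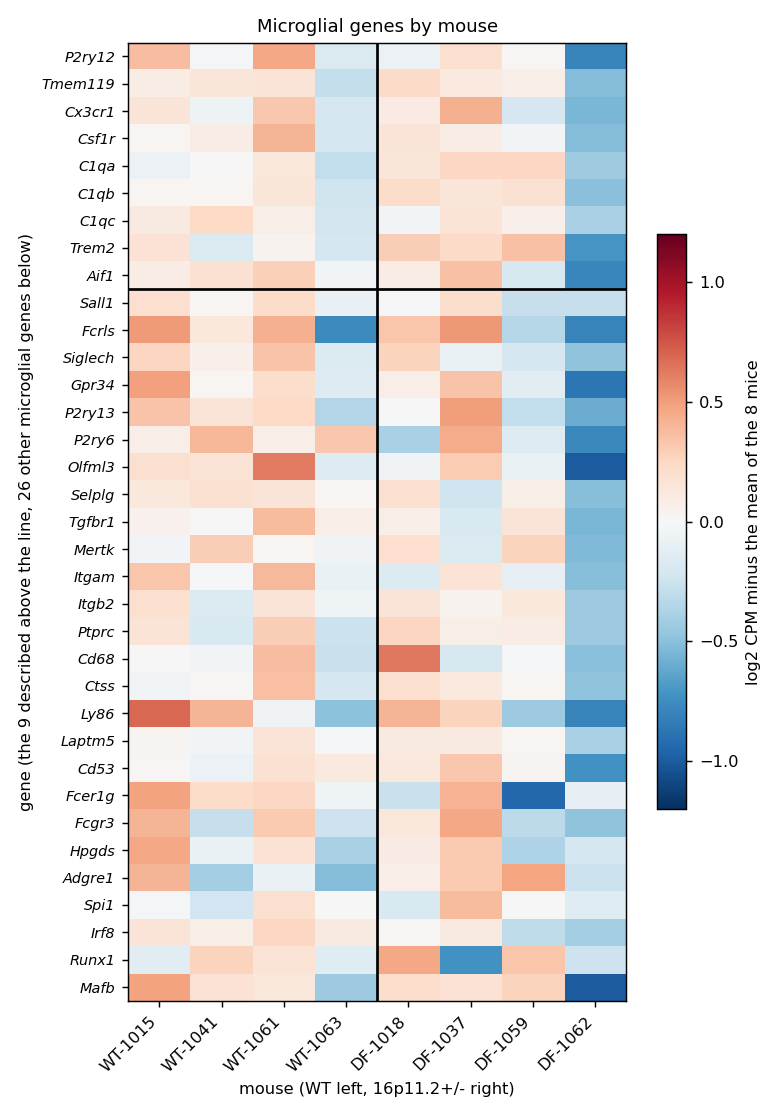
Log2 CPM of the 9 genes (above the line) and 26 other microglia genes (below) in each mouse, as the difference from that gene's mean over the 8 mice, on a colour scale in log2 units. The column of DF-1062 is the lowest for 9 of 9 and 21 of 26 genes.

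All 36 pairs among the 9 genes had a positive Pearson correlation of log2 CPM over the 8 mice, between 0.675 and 0.961 with a median of 0.807. By exact permutation with Benjamini-Hochberg adjustment over the 36 pairs, 26 pairs passed 0.05 by Pearson's r and 1 by Spearman's rho (Tmem119 and Csf1r, r = 0.906, rho = 0.976, adjusted exact p of rho 0.0143). The median r was 0.520 without DF-1062 and 0.360 with the 2 mice farthest from the median of the first gene of each pair left out, a step that also narrows the range of values. C1qa and C1qb stayed together best among the C1q chains, with r = 0.954 and rho = 0.881 over the 8 mice (adjusted exact p = 0.013 and 0.065) and r = 0.837 without the 2 farthest mice. C1qb and C1qc went from r = 0.810 to -0.751. The points share library and depth.

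The genes whose log2 CPM, after subtraction of the genotype means, was most like the mean of the 9 genes over the 8 mice were Oxsr1 (r = 0.992), Numb (0.991), Gm31614 (0.990), Fam168b (0.989) and Gm42675 (0.988), among 18285 genes ranked. None of these 5 is in the lists of microglia genes, so the shared variation was not confined to those lists. Oxsr1, Numb, Gm31614 and Gm42675 also had their lowest FPKM in DF-1062, and Fam168b in WT-1063. These r are the highest of all genes ranked, over only 8 mice. Of the 26 other microglia genes, Olfml3 ranked highest, at 11 with r = 0.977, followed by Laptm5 at 74 with 0.95 and Ctss at 127 with 0.934. Runx1 and Fcer1g, at 0.157 and 0.154, followed the 9 genes least.

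By level per length, C1qb and C1qa were the most abundant of the 9 transcripts over the 8 mice, at 22.9 ± 3.22 and 22.4 ± 3.44 FPKM (SD, n = 8). They were followed by Csf1r (16.8 ± 2.76 FPKM), P2ry12 (13.4 ± 3.10 FPKM), C1qc (10.1 ± 1.28 FPKM), Cx3cr1 (9.26 ± 1.86 FPKM), Tmem119 (6.97 ± 1.02 FPKM), Aif1 (2.02 ± 0.426 FPKM) and Trem2 (1.56 ± 0.326 FPKM). Neighbours in this order were compared within mice by an exact sign-flip permutation test, two-sided, adjusted over the 8 pairs. C1qb and C1qa did not differ beyond their spread (C1qb higher in 5 of 8 mice, adjusted exact p = 0.203), nor did C1qc and Cx3cr1 (6 of 8 mice, adjusted exact p = 0.134). The other neighbours had adjusted exact p between 0.0208 and 0.0312.

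The low place of Trem2 depended on the length used. For 8 of the 9 genes the deposited FPKM divides by the length of all annotated exons together, 4946 bases for Trem2, 1931 for C1qc and 1532 for Aif1, while for Csf1r it implies 4885 of 5774 bases. By contrast, the principal transcript has 1088, 1203 and 875 bases. With the principal transcript, a choice made after the data were seen, Trem2 stood at 7.10, C1qc at 16.3 and Aif1 at 3.54 FPKM. In that order Trem2 and Tmem119 (7.19 FPKM) did not differ beyond their spread (adjusted exact p = 0.641). C1qc then stood above P2ry12 (14.6 FPKM) in 6 of 8 mice, with an adjusted exact p of 0.138, where with the deposited lengths P2ry12 had stood above C1qc in 7 of 8 mice with an adjusted exact p of 0.025. The ratio of C1qa to C1qc over the 8 mice was 1.38 ± 0.151 with these lengths (SD, n = 8). Differences between genotypes do not depend on the length.

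Ratios between genes of the same mouse were compared because a shared change in the amount of microglial RNA cancels in them. The ratio of C1qa to C1qb varied least, with a coefficient of variation of 5.28% over the 8 mice, and was 0.944 ± 0.0256 in WT and 1.01 ± 0.0531 in 16p11.2+/- (SD, n = 4 each, exact permutation p = 0.114, 0.381 adjusted over the 10 ratios compared). C1qa to C1qc was 2.05 ± 0.190 in WT and 2.38 ± 0.171 in 16p11.2+/-, which overlapped (exact permutation p = 0.0571, 0.381 adjusted). P2ry12 to Cx3cr1 was 1.56 ± 0.0986 in WT and 1.35 ± 0.221 in 16p11.2+/- (exact permutation p = 0.114, 0.381 adjusted). None of the 10 ratios passed the adjustment. DF-1062, lowest for each of the 9 genes, lay within the range of the other mice for 8 of the 10 ratios, the 3 between C1q chains included. It was the lowest for P2ry12 to Cx3cr1 (1.21, next 1.22) and for Aif1 to Cx3cr1 (0.1797, next 0.208).

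**Figure D4:**
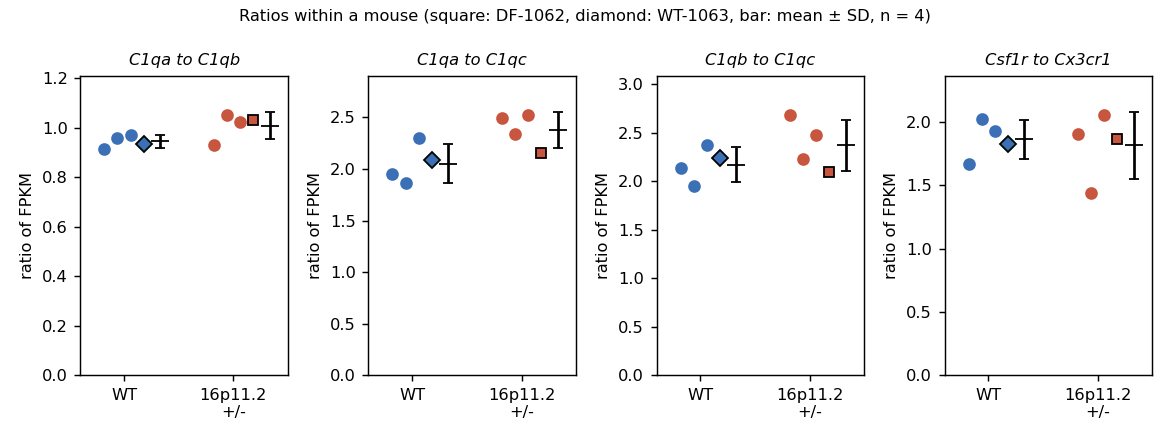
Ratios of FPKM within a mouse (y axes from 0), 1 point per mouse, with the mean ± SD (n = 4), a square for DF-1062 and a diamond for WT-1063. C1qa to C1qb stays between 0.914 and 1.05 in all 8 mice, while the single genes vary by up to 2.23-fold (P2ry12).

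Among the 26 other microglia genes, 0 passed an adjusted p of 0.05 and 0 an unadjusted p of 0.05 by edgeR, where 0.109% and 4.32% of all genes tested did. Their log2 fold change was negative for 23 and positive for 3, with a median of -0.13 beside -0.01 over all genes. Without DF-1062, the lowest mouse in log2 CPM for 21 of the 26, 13 were negative and 13 positive and the median was 0.03. The most abundant were Ctss, a lysosomal protease (39.2 ± 6.42 FPKM in WT, 37.8 ± 6.18 in 16p11.2+/-), Mertk, a receptor for the engulfment of dying cells (15.9 ± 1.99 and 15.1 ± 3.28), and Laptm5, a lysosomal membrane protein (6.57 ± 0.339 and 6.38 ± 0.787). The smallest p was that of Irf8, a transcription factor of microglia, with a log2 fold change of -0.28 (SE 0.16, edgeR adjusted p = 0.859).

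Of the ligands and partners of the receptors, 11 of 12 were tested, and 0 passed an adjusted or an unadjusted edgeR p of 0.05. Their median log2 fold change was -0.09. The CSF1R ligand Csf1 was at 4.62 ± 0.15 FPKM in WT and 4.43 ± 0.598 in 16p11.2+/-, and the other ligand, Il34, at 15.9 ± 2.52 and 15 ± 2.53. Cx3cl1, which encodes fractalkine, was at 131 ± 8.84 FPKM in WT and 115 ± 25.6 in 16p11.2+/-, with 80.1 in DF-1062. Tyrobp, the signalling partner of TREM2, was at 5.57 ± 1.32 and 6.95 ± 1.65 FPKM, a log2 fold change of 0.30 (SE 0.25, edgeR adjusted p = 0.859). The lipid carriers Apoe and Clu, known to bind TREM2, had log2 fold changes of -0.02 and -0.20.

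Of 19 genes of the complement cascade, not all of which act after C1q, 10 were tested and 0 passed the adjusted p. Among the 10, 2 (C4b and C1s1) had an unadjusted edgeR p under 0.05, where 4.32% of all genes did. C4b, which encodes complement component C4, was at 8.13, 8.24, 7.03 and 6.51 FPKM in the WT mice and at 6.06, 5.63, 5.98 and 5.05 in the 16p11.2+/- mice. Every 16p11.2+/- mouse lay below every WT mouse, where 2.83% of all genes tested had no overlap. Fth1 and C1qtnf4, described below, had no overlap either. The log2 fold change was -0.41 (SE 0.11, 95% interval -0.67 to -0.15), with an unadjusted edgeR p of 0.00578, an adjusted p of 0.859 and an exact permutation p of 0.0286, the smallest that 4 against 4 mice allow. It stayed between -0.48 and -0.33 when any 1 mouse was left out. C4b has a near-identical copy, C4a, so the split of reads between them is uncertain.

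C4b is expressed by oligodendrocytes as well as astrocytes, and 5 of 6 oligodendrocyte markers were lower in 16p11.2+/- at an unadjusted edgeR p of 0.05 (4.32% of all genes in either direction), with a summed FPKM of 1785 to 2090 in WT and 1143 to 1586 in 16p11.2+/-. Of 6 astrocyte markers, 5 had a positive log2 fold change (median 0.08) and Gfap had -0.39, and their summed FPKM was 301 to 337 in WT and 293 to 389 in 16p11.2+/-. The part of these cells in the C4b difference was not tested. C3, the central component, was near the detection limit at 14 to 36 reads per mouse, with 0.306 ± 0.107 FPKM in WT and 0.273 ± 0.110 in 16p11.2+/-. C8g and Masp1, the other genes of this list with the highest FPKM, had log2 fold changes of 0.05 (SE 0.20) and 0.11 (SE 0.25). C1s1, singled out after its values were seen, encodes the protease C1s that C1q activates and had 9 to 30 reads per mouse and a log2 fold change of -0.85 (SE 0.33, edgeR adjusted p = 0.859).

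Of the complement receptors and regulators, 20 of 21 were tested and 1 fell, Sez6l2, where 0.0929% of all genes tested were lower at this threshold. Sez6l2 encodes a neuronal membrane protein with complement-control domains, and lies at chr7:126950563-126970606 in the deleted segment. Its FPKM was 64.4, 66.8, 65.2 and 65.4 in WT and 30.9, 33.7, 31.1 and 37.0 in 16p11.2+/-, with no overlap, a log2 fold change of -1.003 (SE 0.07) and an edgeR adjusted p of 0.000777. The other 19 genes of this list did not pass the adjustment. Itgam and Itgb2, which encode the chains of the phagocytic receptor CR3, had log2 fold changes of -0.31 (SE 0.19) and -0.05 (SE 0.18), and C3ar1, the receptor for C3a, of -0.13 (SE 0.23). C1qbp, a mitochondrial protein that can bind C1q, was at 9.66 ± 0.825 FPKM in WT and 9.75 ± 0.849 in 16p11.2+/-. Cr1l, named after its values were seen, was the other gene of the list with an unadjusted edgeR p under 0.05 (log2 fold change -0.17, SE 0.07), and 16 of 18 alternatives put it above that threshold.

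Other genes with a C1q domain were read gene by gene as a further list because they share the fold of the C1q chains but are not complement components. Of 20, 13 were tested, 0 passed the adjusted p, and 2 had an unadjusted edgeR p under 0.05, where 0.109% and 4.32% of all genes tested did. Cbln4, a secreted synapse organiser of neurons, was at 1.60 ± 0.326 FPKM in WT and 4.53 ± 4.13 in 16p11.2+/-, where DF-1062 reached 10.6. Its log2 fold change was 1.44 (SE 0.52) with the 8 mice and 0.65 without DF-1062. C1qtnf4, a secreted cytokine-like protein, was at 24.2 ± 2.31 and 20.97 ± 1.10 FPKM, a log2 fold change of -0.23 (SE 0.09, edgeR adjusted p = 0.859). C1ql3 and C1qtnf12, next in abundance, had log2 fold changes of -0.06 (SE 0.63) and -0.25 (SE 0.18).

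Genes that microglia raise when they take up the disease-associated state gave 0 of 14 tested (18 listed) at the adjusted p, with a median log2 fold change of -0.15. In bulk tissue these genes are not read from microglia alone. Lpl was at 2.16 FPKM in DF-1037, 1.60 in DF-1062 and 5.21 to 8.32 in the other mice. DF-1037 and DF-1062 also had the lowest medium spiny neuron scores. Cd63 and Ctsd were highest in WT-1063, at 22.0 and 82.5 FPKM. Cst7, Itgax, Clec7a and Lgals3 did not pass the filter on low counts. Fth1, the ferritin heavy chain, which oligodendrocytes also express strongly, was the single gene of the 14 with an unadjusted edgeR p under 0.05, where 4.32% of all genes passed. It was at 1739 ± 147 FPKM in WT and 1357 ± 239 in 16p11.2+/-. The lysosomal protease Ctsb and the class I light chain B2m had log2 fold changes of 0.04 and 0.11. Interferon and inflammatory genes gave 0 of 12 tested (20 listed) at either the adjusted or the unadjusted edgeR p, with a median of 0.03. Their most abundant genes were the class I genes H2-D1 (log2 fold change 0.24, SE 0.19) and H2-K1 (0.01, SE 0.29) and the interferon-induced Ifit3 (0.25, SE 0.28). Nlrp3, which encodes an inflammasome sensor, had the smallest p of this list, with 7 to 32 reads per mouse and a log2 fold change of -0.71 (SE 0.41).

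Other cells that express some of the 9 genes were measured by their own markers. Of 8 perivascular macrophage markers, 4 were tested, 0 passed an adjusted or unadjusted edgeR p of 0.05, and their summed FPKM was 3.39 to 4.92 in WT and 2.61 to 4.51 in 16p11.2+/-. The log2 fold changes of the 4 were -0.56 for Cd163, -0.04 for Stab1, 0.12 for Mrc1 and 0.73 for F13a1. F13a1, with 4 to 32 reads per mouse, was 1.69 without WT-1063 and then had an unadjusted edgeR p under 0.05, and Cd163 ran from -0.89 without DF-1018 to -0.27 without DF-1037. Of 10 blood leukocyte markers, 0 passed the filter on low counts, and their summed FPKM was 0.121 to 0.377 in WT and 0.296 to 0.519 in 16p11.2+/-. By comparison the 9 microglial and C1q genes summed to 89.0 to 121 FPKM in WT and 76.7 to 119 in 16p11.2+/-.

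**Figure D5:**
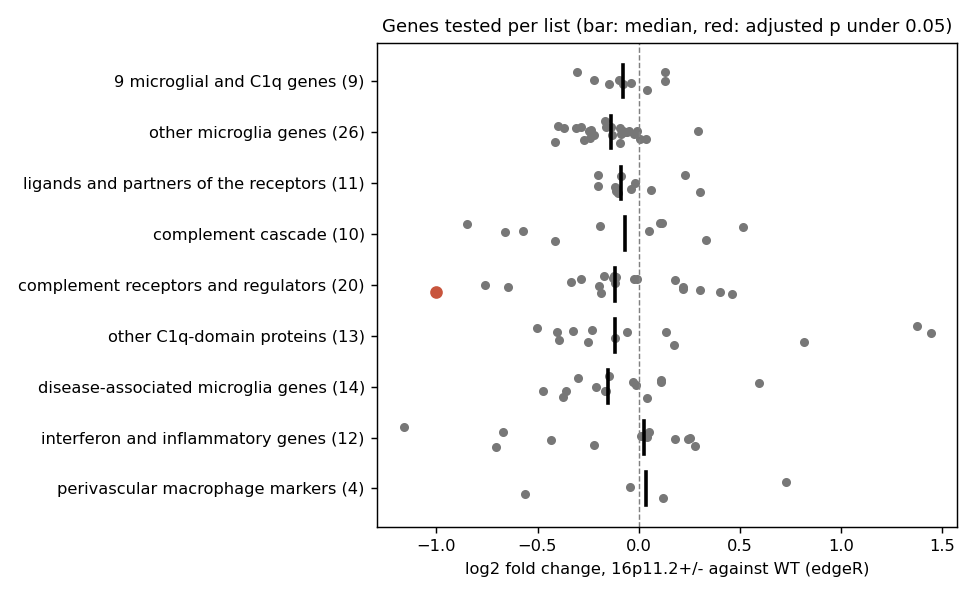
Log2 fold change, 16p11.2+/- against WT by edgeR (x axis), of every tested gene in each list, with the median as a bar, the number tested in brackets and genes past an adjusted p of 0.05 in red. Of the genes shown, Sez6l2 in the list of complement receptors and regulators is past the threshold.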

How the data were processed

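RNAseq of total striatal RNA was made from 8 mice, 1 library per mouse and 4 per genotype. The authors trimmed and aligned the reads with Hisat2 and counted them per gene with Htseq-count. The submitters' processing notes instead name Bowtie 0.12.2 and the builds mm8 and mm9, while the gene lengths implied by the values were within 0.5% of GENCODE M21 (GRCm38) for 95.7% of 14636 genes. Whether strand was used in the counting is not given in the sources used here. The deposited counts are whole reads per gene, not normalized, and the deposited FPKM values are the authors' own, scaled to gene length and library total. Deposited columns that hold group means, fold changes and p-values of the authors' own comparison were not used.

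Counts were filtered with filterByExpr (minimum count 10, minimum total 15), scaled by TMM and tested with edgeR 4.0.16 (quasi-likelihood, genotype as the single term) in R 4.3.3, with Benjamini-Hochberg adjustment over all 18294 genes tested. DESeq2 1.42.0 and limma 3.58.1 (voom, and trend on log2(FPKM + 1) or log2(FPKM + 0.1)) were alternatives, as were library totals, RLE factors, other filters, a thalamus or medium spiny neuron score as covariate, and each mouse left out. Values of single genes and ratios were compared by two-sided exact permutation over the 70 assignments of the 8 mice (scipy 1.17.1). Levels within mice were compared by exact sign-flip, and correlations by all 40320 pairings. The scripts were tested on simulated data. The labels name a separate mouse for each library but give no litter or batch, and libraries of the same genotype differed beyond counting noise. The depth per mouse is given with the results, and it limits the precision of genes with few reads.

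The 9 genes and the gene lists were chosen with earlier results of these data known. Named genes were the 9 genes, their direct partners (Tyrobp, Csf1, Il34, Cx3cl1, C3, C4b, C3ar1, Itgam, Itgb2 and C1qbp), the 5 genes most like the mean of the 9, and from each other list the genes past the adjusted p or, where there were none, the 3 with the highest FPKM and the 1 with the smallest p. A gene of the list of other microglia genes is not reported here, and the counts of that list leave it out.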

Additional observations from a re-analysis of the deposited data

Results flagged for a closer look

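Of 110 groups of 4 mice examined for a mouse far from the others by Dixon's ratio (the gap to the nearest mouse over the range of the group), 6 (5.45%) passed the 95% critical value for 4 values, and chance gives about 1 in 20. C1qb in 16p11.2+/- stood out for DF-1062, with a ratio of 0.904 (16.97 FPKM, beside 25.0 to 25.9 in the other 3 mice). The ratio of P2ry12 to Cx3cr1 in 16p11.2+/- stood out for DF-1059, with 0.858 (1.68, beside 1.21 to 1.28). Mertk in WT stood out for WT-1041, with 0.845 (18.9 FPKM, beside 14.6 to 15.3). C1qtnf4 in 16p11.2+/- stood out for DF-1018, with 0.910 (19.3 FPKM, beside 21.4 to 21.6). The perivascular macrophage marker F13a1 stood out in WT for WT-1063, with 0.832 (0.294 FPKM, beside 0.0387 to 0.0815), and in 16p11.2+/- for DF-1037, with 0.913 (0.290 FPKM, beside 0.164 to 0.175).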

How the results depend on the processing

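The number of the 9 genes past an adjusted p of 0.05 was 0 under every alternative run, with all 8 mice and with any 1 mouse left out. The number of all genes called was 20, and it was 16 to 29 under the other tools, scalings, filters and the medium spiny neuron covariate, 10 with the thalamus score as covariate and 8 to 18 with 1 mouse left out. The log2 fold changes below changed sign, and the cause was not tested. With the thalamus score as covariate they were 0.074 for Tmem119, 0.0022 for C1qc, 0.013 for Mertk, 0.0082 for Ctss, 0.080 for Il34, -0.25 for H2-K1, -0.34 for Mrc1 and 0.029 for Stab1. With the medium spiny neuron score they were 0.12 for Tmem119, 0.081 for Mertk, 0.11 for Itgb2, 0.082 for Ctss, 0.036 for Laptm5, 0.083 for Il34, -0.054 for Masp1, -0.037 for Ifit3, -0.22 for H2-K1 and 0.10 for Stab1. With library totals they were 0.0058 for Apoe and 0.013 for C1qbp, and with limma-trend 0.014 for Apoe at either pseudocount and 0.011 to 0.013 for C1qbp. With 1 mouse left out the range was -0.13 to 0.11 for Tmem119, -0.26 to 0.074 for Cx3cr1, -0.026 to 0.20 for C1qb, -0.18 to 0.017 for C1qc, -0.20 to 0.053 for Mertk, -0.11 to 0.085 for Itgb2, -0.14 to 0.072 for Ctss, -0.10 to 0.056 for Laptm5, -0.21 to 0.036 for Il34, -0.073 to 0.089 for Apoe, -0.44 to 0.00034 for C3, -0.026 to 0.18 for C8g, -0.016 to 0.33 for Masp1, -0.29 to 0.0027 for C3ar1, -0.041 to 0.030 for C1qbp, -0.51 to 0.29 for C1ql3, -0.037 to 0.21 for B2m, -0.26 to 0.20 for H2-K1, -0.16 to 0.43 for Mrc1 and -0.15 to 0.11 for Stab1. On log2 FPKM it was -0.13 to 0.11 for Tmem119, -0.25 to 0.052 for Cx3cr1, -0.028 to 0.19 for C1qb, -0.17 to 0.010 for C1qc and -0.0014 to 0.33 for Trem2. For the log2 ratios it was 0.073 to 0.13 for C1qa to C1qb, -0.078 to 0.11 for C1qc to Cx3cr1, -0.33 to -0.17 for P2ry12 to Cx3cr1, -0.029 to 0.17 for Tmem119 to Cx3cr1 and -0.11 to 0.061 for Csf1r to Cx3cr1, with an unadjusted exact permutation p of 0.0286, the smallest that 4 against 3 mice allow, for C1qa to C1qb without DF-1018 and for P2ry12 to Cx3cr1 without DF-1059. With the principal transcript lengths, the level over the 8 mice was 16.3 FPKM for C1qc, 7.10 for Trem2 and 3.54 for Aif1. The other values kept their direction and, for adjusted p-values, their side of the threshold, but their size could move. With the medium spiny neuron score as covariate, the log2 fold change of each of the 9 genes was higher than without it. It was then -0.14 for P2ry12 (-0.31 without it), -0.0013 for Csf1r (-0.15), 0.26 for C1qa (0.13) and 0.36 for Trem2 (0.13). Unadjusted edgeR p-values of single genes were less stable. Of the genes under 0.05 with 8 mice, Fth1 lay above it under 11 of 18 alternatives (p up to 0.118), C1qtnf4 under 9 of 18 (up to 0.125), Cbln4 under 5 of 18 (up to 0.139), C1s1 under 5 of 17 (up to 0.0985) and Cr1l under 16 of 18 (up to 0.18), while C4b stayed under it in all 18. Of the genes above it, Clu passed under 3 of 18 (p down to 0.0357), Nlrp3 under 2 of 17 (0.037), and C1qa (without DF-1062), Masp1 and C1qtnf12 (both without DF-1018) and F13a1 (without WT-1063, 0.00242) under 1 each. No paired analysis was possible because the 2 genotypes share no replicate numbers in the labels. The 95% intervals, which hold both counting error and the spread of the mice, allow differences of up to -0.81 (P2ry12) and 0.67 (Trem2) on the log2 scale. Aif1 and Trem2 had the fewest reads, 30 to 60 and 80 to 158 per mouse.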
